A study of Saccharomyces cerevisiae with 7 samples.

Results

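Transcript levels were compared between yeast cells expressing a mitochondria-targeted GFP (MTS-GFP) and cells expressing a misfolding GFP (GFPm3), both made from the *PYK1* promoter (*PYK1pro*). These are 2 of the 7 arrays of the series, chosen by their labels alone, and the comparison covers all 6225 systematic names on the array. In MTS-GFP, the signal that directs a protein into mitochondria, taken from the mitochondrial ribosomal protein Mrps12, is joined to the N-terminus of yEGFP3, a bright GFP with codons suited to yeast. GFPm3 is the same GFP with mutations that make it misfold. The host of all strains was BY4741 (*MATa his3Δ1 leu2Δ0 met15Δ0 ura3Δ0*), and the plasmid was pTOW40836, a gTOW plasmid with *URA3* and *leu2d*, a weak allele of *LEU2*. All cultures grew to log phase in synthetic medium without uracil, where selection does not drive the copy number of this plasmid up. The other 5 arrays hold the empty vector, SS-GFP with a secretion signal (*PYK1pro*), NES-GFP with a nuclear export signal (*HXT7pro*), and GFP and GFP-Deg, the latter with a degron (both *TDH3pro*). Each strain was measured on 1 array, and the number of transformants or cultures behind it is not given in the sources used here. There is therefore no replicate, no p-value and no error between cultures for any value below, and each difference is between 2 arrays.

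The 2 proteins would be handled by partly different machinery, though which parts of the cell they loaded was not tested here. A mitochondrial precursor is made in the cytosol, held unfolded by Hsp70 and its partners and threaded through the TOM and TIM complexes, and precursors that clog import or stay outside are known to disturb mitochondria and to call on transcriptional responses such as the Pdr3-dependent mitoCPR. A misfolded cytosolic protein is bound by Hsp70, Hsp90 and disaggregases, whose genes are under the heat shock factor Hsf1. Yeast also answers many stresses through Msn2 and Msn4, which raise genes of stress defence and of the reserve carbohydrates trehalose and glycogen, while genes of the ribosome are lowered.

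The level of a gene is its log2 signal minus the log2 75th percentile of its array, so that 0 marks a gene as bright as that percentile. The difference of a gene is its level in MTS-GFP minus its level in GFPm3, and positive values mean a higher level in MTS-GFP. Levels on the 7 arrays are given throughout in the order MTS-GFP, GFPm3, empty vector, NES-GFP, SS-GFP, GFP and GFP-Deg, of which the first 4 shared a slide and the last 3 were on another. The 75th percentile was 4789 in MTS-GFP and 5337 in GFPm3, within the range of 3719 to 5626 over the 7 arrays. On these arrays 97.1% and 97.3% of the spots lay well above background, and 0 spots were saturated. The 7 spots of a probe differed with a pooled SD of 0.10, which gives a difference of 2 means of 7 spots an error of 0.056. This spot error covers the measurement on the arrays and nothing before it. RNA per cell was not measured, so a change in the total RNA of the cells would not be seen. The arrays read RNA of whole cultures, so a lower level in every cell and a low level in some cells cannot be told apart.

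Of the 6225 names, 285 (4.58%) were over 2-fold higher and 164 (2.63%) over 2-fold lower in MTS-GFP than in GFPm3. Every count of list members over 2-fold apart given below is to be read beside these shares. Among the 6028 names well above background on both arrays, these numbers were 272 (4.51%) and 154 (2.55%). The higher side reached further. Over 4-fold, 63 names were higher and 10 lower, and over 8-fold, 10 were higher and 0 lower. The median difference of all names was -0.10, with an SD over names of 0.59. The share of the 2-fold calls that were higher was 63.5%. It depended on the scaling, with 73.5% after scaling on the array median, 78.9% after loess, 72.0% after normexp and 40.1% with no scaling, where the median of all names moved by 0.07, 0.11, 0.06 and -0.16. By spot error alone, 1916 names were higher by over 2 errors (0.11), 3062 were lower and 1247 were within them. By sign alone, 2495 of the 6225 names were higher and 3730 lower. Counts of list members by spot error or by sign given below are to be read beside these numbers. The higher genes were mostly brighter than average, with a median level of -0.38 over both arrays, against -1.68 for the lower genes and -1.32 for all names.

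**Figure D1:**
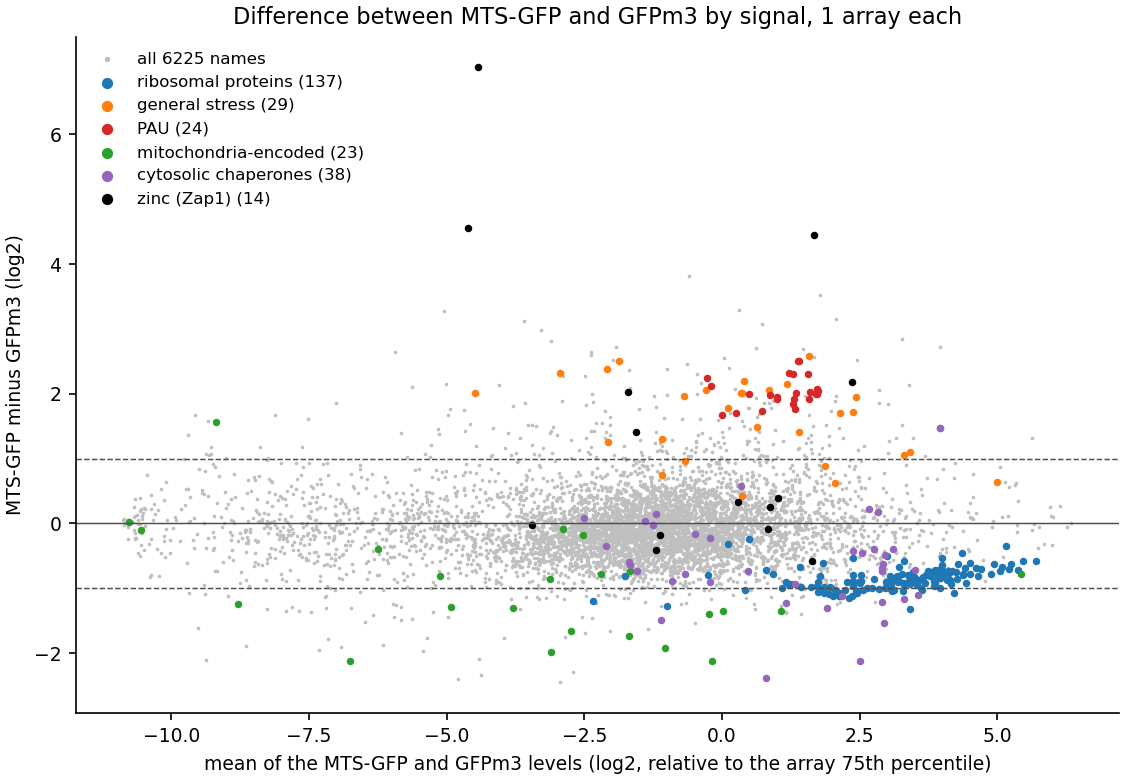
Difference of each name (MTS-GFP minus GFPm3, log2) plotted against its mean level on both arrays (log2 over the 75th percentile), with 6 gene lists coloured. The higher genes reach 7.03 and the lower genes -2.45, and the ribosomal proteins form a dense group at the bright end below 0.

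The other 5 arrays show where the 2 arrays stood for these names. The names were picked by the difference between the 2 arrays, which itself favours extreme ranks for them. The counts over all names carry no such choice and are not a matched baseline. Of the 285 higher names, MTS-GFP was the highest of the 7 arrays in 226 and GFPm3 the lowest in 118, with 79 in both counts and 20 in neither. Of the 164 lower names, MTS-GFP was the lowest in 100 and GFPm3 the highest in 93, with 47 in both and 18 in neither. Over all names, MTS-GFP was the highest in 1042 and the lowest in 1565, and GFPm3 the highest in 1657 and the lowest in 968. Against the empty vector, an array that both comparisons share, MTS-GFP was over 2-fold higher in 192 of the 285 names, GFPm3 over 2-fold lower in 34, both held in 10 and neither in 69. For the 164 lower names, MTS-GFP was over 2-fold below the vector in 38, GFPm3 over 2-fold above it in 46, both held in 1 and neither in 81. Between arrays of this slide, the number of names over 2-fold apart in either direction ran from 106 (MTS-GFP and NES-GFP) to 512 (MTS-GFP and the empty vector), with 449 (7.21%) here.

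Marker genes of the plasmid and host and the source genes of the constructs were examined first. *CDC19*, the yeast pyruvate kinase gene whose promoter (under its other name, *PYK1*) drives both GFPs, had levels of 5.66, 5.67, 6.18, 5.66, 6.28, 6.54 and 6.45, a difference of -0.01 here and of 0.44 after loess, which changed its sign. *URA3*, the selected marker, was at 3.59, 3.40, 6.75, 5.19, 4.43, 5.84 and 4.90, and *LEU2* at 1.09, 1.58, 3.27, 2.72, 1.89, 2.81 and 1.62. Both markers were thus lower in the 2 strains than in the empty vector, and they differed between the 2 strains by 0.20 for *URA3* and -0.50 for *LEU2*. The plasmid copy number was not measured here. *HIS3* and *MET17* (*MET15*), which the host lacks, were not well above background on either array. *MRPS12*, the source of the targeting signal, was 0.62 higher in MTS-GFP, with levels of 2.12, 1.51, 1.85, 1.78, 1.97, 2.07 and 1.79. Whether its probe reads the part that the construct carries was not tested.

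The largest differences belonged to zinc genes, and there GFPm3 was the array that stood apart. Zap1, the zinc-sensing activator, switches on transporters and other genes when zinc is short. *YOR387C* had levels of -0.92, -7.95, 2.11, -1.73, -3.16, -0.82 and -0.37, a difference of 7.03 or 131-fold. Its near-identical relative *VEL1* (YGL258W) was at -2.33, -6.89, 1.05, -2.70, -2.97, -0.69 and -0.21, a difference of 4.56, and the probes may read both transcripts. In GFPm3 both genes were close to the dim end of the array, and the differences were 4.87 for *YOR387C* and 3.15 for *VEL1* after normexp background correction.

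Brighter zinc genes were also lowest in GFPm3. *ZPS1* (YOL154W), a secreted protein made in low zinc, was at 3.91, -0.55, 5.28, 3.18, 3.20, 4.28 and 5.37, a difference of 4.45 or 21.9-fold. *ZRT1*, the high-affinity zinc transporter, was at 3.45, 1.27, 4.75, 3.48, 4.24, 4.78 and 5.24, a difference of 2.18. *ADH4*, an alcohol dehydrogenase induced by low zinc, was at -0.69, -2.71, 1.36, -1.60, -1.46, -0.31 and 0.82, a difference of 2.03. In these 3 genes MTS-GFP lay below the empty vector as well, but by less. *FET4*, a low-affinity transporter of iron and zinc, was higher by 1.40. Of the 14 Zap1 targets, 6 were over 2-fold higher and 0 lower, with a median of 0.36, and GFPm3 was lowest of the 7 arrays in 9. *ZAP1* itself differed by -0.02, and *ATG41* by -0.59. Set against the empty vector, the list had medians of -0.65 in MTS-GFP and -1.06 in GFPm3, with the vector array shared by both values.

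The seripauperin genes (*PAU*) were higher in MTS-GFP as a complete family. They encode small secreted proteins made in anaerobic growth and fermentation, and most lie near chromosome ends. All 24 on the array were over 2-fold higher, from 1.67 for *PAU20* to 2.51 for *PAU22*, with a median of 2.0. *PAU22* had levels of 2.64, 0.13, -0.62, 2.23, -1.39, -1.26 and -1.65. MTS-GFP was the highest of the 7 arrays in all 24, NES-GFP the second in 24 and GFPm3 the third in 22. Over the family, levels ran from 0.84 to 2.76 in MTS-GFP, from 0.22 to 2.27 in NES-GFP, from -1.38 to 0.74 in GFPm3 and from -2.56 to 0.34 on the other 4 arrays. The ranges of MTS-GFP and GFPm3 did not overlap. Because the genes are near-identical, 1 transcript may be read by many probes, and the 24 may not be separate measurements.

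Other genes of the anaerobic cell wall were also highest in MTS-GFP. *TIR4*, a mannoprotein needed for anaerobic growth, was at 1.96, -0.74, -2.19, 1.16, -3.29, -3.02 and -3.37, a difference of 2.71. *DAN1*, also made without oxygen, was at 0.71, -0.70, -1.49, 0.34, -4.03, -7.15 and -6.09, a difference of 1.41. Both were higher on all 4 arrays of the first slide than on the 3 of the second. *TIR3* (1.52) and *DAN4* (1.14) were over 2-fold higher too, and *TIR2* (0.77) and *TIR1* (0.43) were within 2-fold. For all 6 of these genes MTS-GFP was the highest array, and NES-GFP was the second in 4. Against the shared empty vector, the medians were 2.56 in MTS-GFP and 0.55 in GFPm3 for the *PAU* genes, and 2.10 and 0.74 for the *DAN* and *TIR* genes.

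The isoforms of cytochrome *c* for high and low oxygen differed in opposite directions. Cytochrome *c* is encoded by *CYC1*, the main form in air, and *CYC7*, the form of low oxygen. *CYC7* was at 0.72, -0.87, -0.82, 0.55, -1.67, -0.38 and -0.53, higher in MTS-GFP by 1.59, and *CYC1* was at -1.25, 0.28, -0.89, -1.02, -0.63, -0.06 and -0.33, a difference of -1.54. MTS-GFP was the highest array for *CYC7* and the lowest for *CYC1*, and GFPm3 was the highest for *CYC1*. Of other genes with a hypoxic form, the hypoxic subunit *COX5B* of cytochrome *c* oxidase was higher by 1.25 and the aerobic *COX5A* differed by 0.05, and *ANB1*, the hypoxic form of the translation factor eIF5A, was higher by 1.93, from levels of 1.58, -0.35, -0.21, 0.97, 0.05, -0.41 and -0.03. The sterol importers *AUS1* and *PDR11* were higher by 1.27 and 1.1, and *HEM13*, an oxygen-dependent enzyme of haem synthesis, by 0.90. In all, 5 of the 14 hypoxic and sterol import genes were over 2-fold higher and 0 lower, with a median of 0.32. The 26 genes of ergosterol synthesis had 0 over 2-fold in either direction and a median of -0.20.

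**Figure D2:**
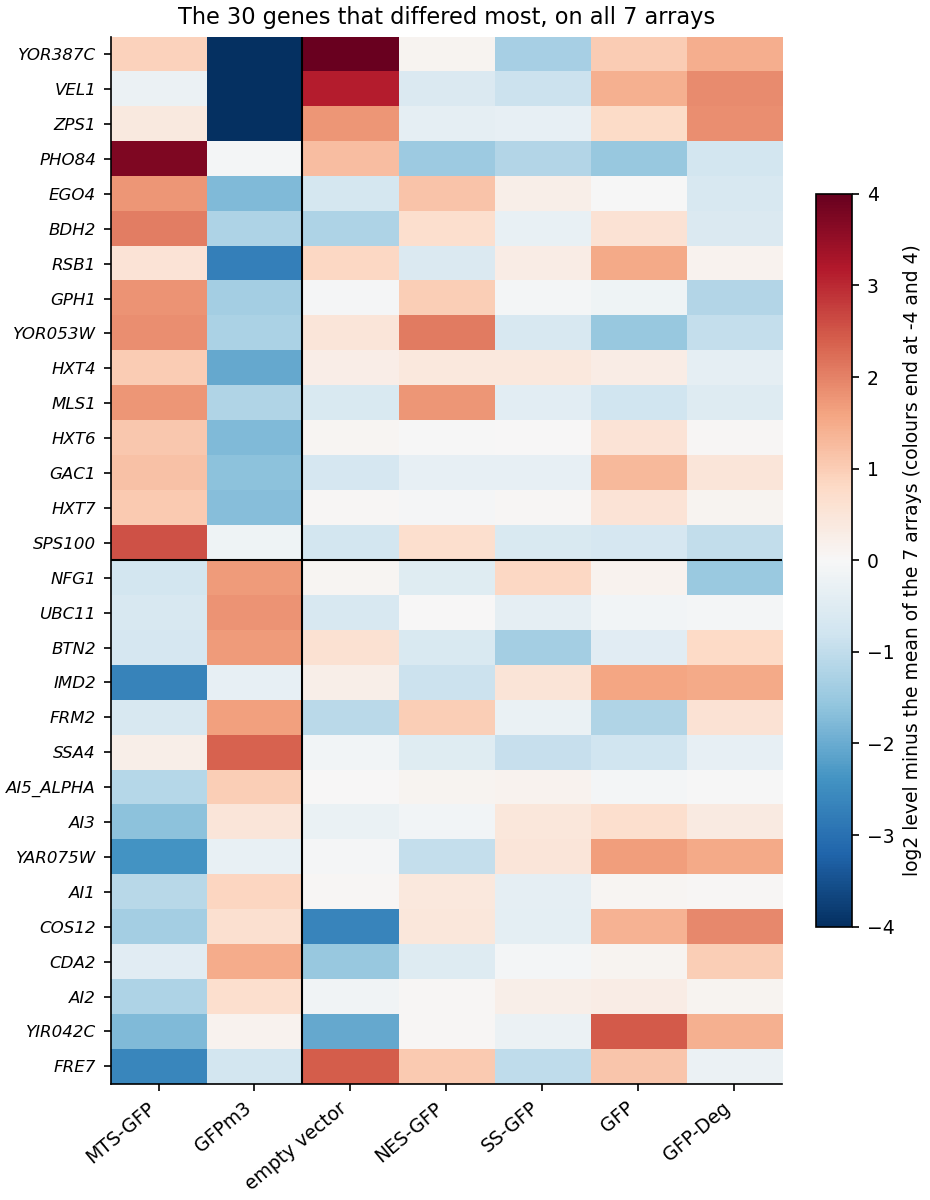
Deviation of the 30 genes with the largest differences (15 higher, 15 lower in MTS-GFP) from their mean over the 7 arrays, on the log2 scale, with 1 column per array and colours that end at 4 in either direction. GFPm3 is the low array for *YOR387C*, *VEL1*, *ZPS1* and *RSB1*, and MTS-GFP the high one for *PHO84*, *EGO4*, *GPH1* and *BDH2*.

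The general stress genes of the list were all higher in MTS-GFP, in a list chosen with earlier results of these data known. Stress-induced genes counted only in other lists could differ the other way, as *SSA4* did (-2.13). Of 29 genes controlled by Msn2 and Msn4, 23 were over 2-fold higher, and the other 6 were higher by less, down to 0.42 for *ALD2*. The median difference was 1.72, and MTS-GFP was the highest of the 7 arrays in all 29, with NES-GFP second in 17. *SPI1*, a wall protein that protects against weak acids, was at 2.86, 0.28, 1.45, 2.09, 2.02, 2.27 and 1.72, a difference of 2.58. *HSP26*, a small heat shock protein, was at 4.69, 3.22, 1.99, 3.54, 1.97, 1.81 and 1.68, a difference of 1.47, with GFPm3 above the vector as well. *GRE1* (2.51), *RTN2* (2.38), *TKL2* (2.32), *MSC1* (2.20) and *TFS1* (2.15) were the next largest, while *CTT1*, the cytosolic catalase, was higher by 1.49 and *HSP12*, a membrane-stabilizing protein, by 0.88. The reading frame *YBR116C* overlaps *TKL2*, a transketolase, so that its probe may not be a separate measurement. Against the shared vector, 23 of the 29 genes were over 2-fold higher in MTS-GFP and 4 in GFPm3, with medians of 1.80 and -0.02.

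Genes of reserve carbohydrates differed with them, and here GFPm3 was also low. *GPH1* (YPR160W), glycogen phosphorylase, was at 3.65, 0.50, 1.82, 2.85, 1.78, 1.70 and 0.70, a difference of 3.15 or 8.85-fold. *GAC1*, the subunit that directs the phosphatase Glc7 to glycogen, was higher by 2.81, *PGM2*, phosphoglucomutase, by 2.69, and *GDB1*, the debranching enzyme, by 2.45. Genes of synthesis were higher as well as those of breakdown, with *TSL1*, *TPS2* and *TPS1* of the trehalose synthase complex at 2.07, 1.5 and 1.48 and glycogen synthase *GSY2* at 1.96. Of the 18 genes, 12 were over 2-fold higher and 0 lower, the median was 1.51, and *PGM1*, at -0.27, was the member furthest in the other direction. The highest array was MTS-GFP in 14 and the lowest GFPm3 in 12. Their medians against the shared vector were 0.87 and -0.58.

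Several hexose transporters and sugar kinases were higher in MTS-GFP. *HXT4*, a transporter induced by low glucose, was at 2.27, -0.81, 1.5, 1.67, 1.68, 1.56 and 0.89, a difference of 3.08. The high-affinity transporters *HXT6* and *HXT7*, which are near-identical so that their probes may read both, were higher by 2.85 and 2.73, *HXT5*, a transporter of slow growth, by 2.55, and *HXT2* by 1.31. The low-affinity transporters *HXT1* and *HXT3* differed by -0.01 and 0.87, both less than 2-fold. Of 21 transporters and sensors, 5 were over 2-fold higher and 0 lower, and the median was 0.30. Under quantile, loess or normexp the number over 2-fold higher was 7. The kinases *HXK1* (2.13) and *GLK1* (1.85), which are repressed by glucose, and *TDH1* (1.32) and *ADH2* (1.05) were over 2-fold higher among 24 genes of glycolysis and fermentation, whose median was 0.02.

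Among genes of the TCA cycle, the glyoxylate cycle and gluconeogenesis, 4 of 18 were over 2-fold higher and 1 lower. The median was 0.52, and the member over 2-fold lower was at -1.22. *MLS1* (YNL117W), malate synthase of the glyoxylate cycle, was at -1.80, -4.78, -4.17, -1.81, -3.98, -4.35 and -4.07, a difference of 2.99. Its level was high in MTS-GFP and NES-GFP and low on the other 5 arrays. *CIT1* (1.19), the mitochondrial citrate synthase, *ICL1* (1.13), isocitrate lyase, and *FBP1* (1.09), fructose bisphosphatase, were the others on the higher side. With no scaling, *ICL1* and *FBP1* fell below 2-fold, and 2 of the 18 genes were over it. Of 11 genes of the retrograde response, 5 were higher and 6 lower, with a median of -0.03. *IDH1* and *IDH2*, subunits of isocitrate dehydrogenase, were each higher by 1.01, and they were the 2 over 2-fold higher (18.2%, beside 4.58% of all names). That count was 0 with no scaling, 1 under quantile or medians of spots, and 3 after loess or normexp. *CIT2*, the usual marker of that response, was higher by 0.70, and *ATO3* was the lowest member at -0.69.

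**Figure D3:**
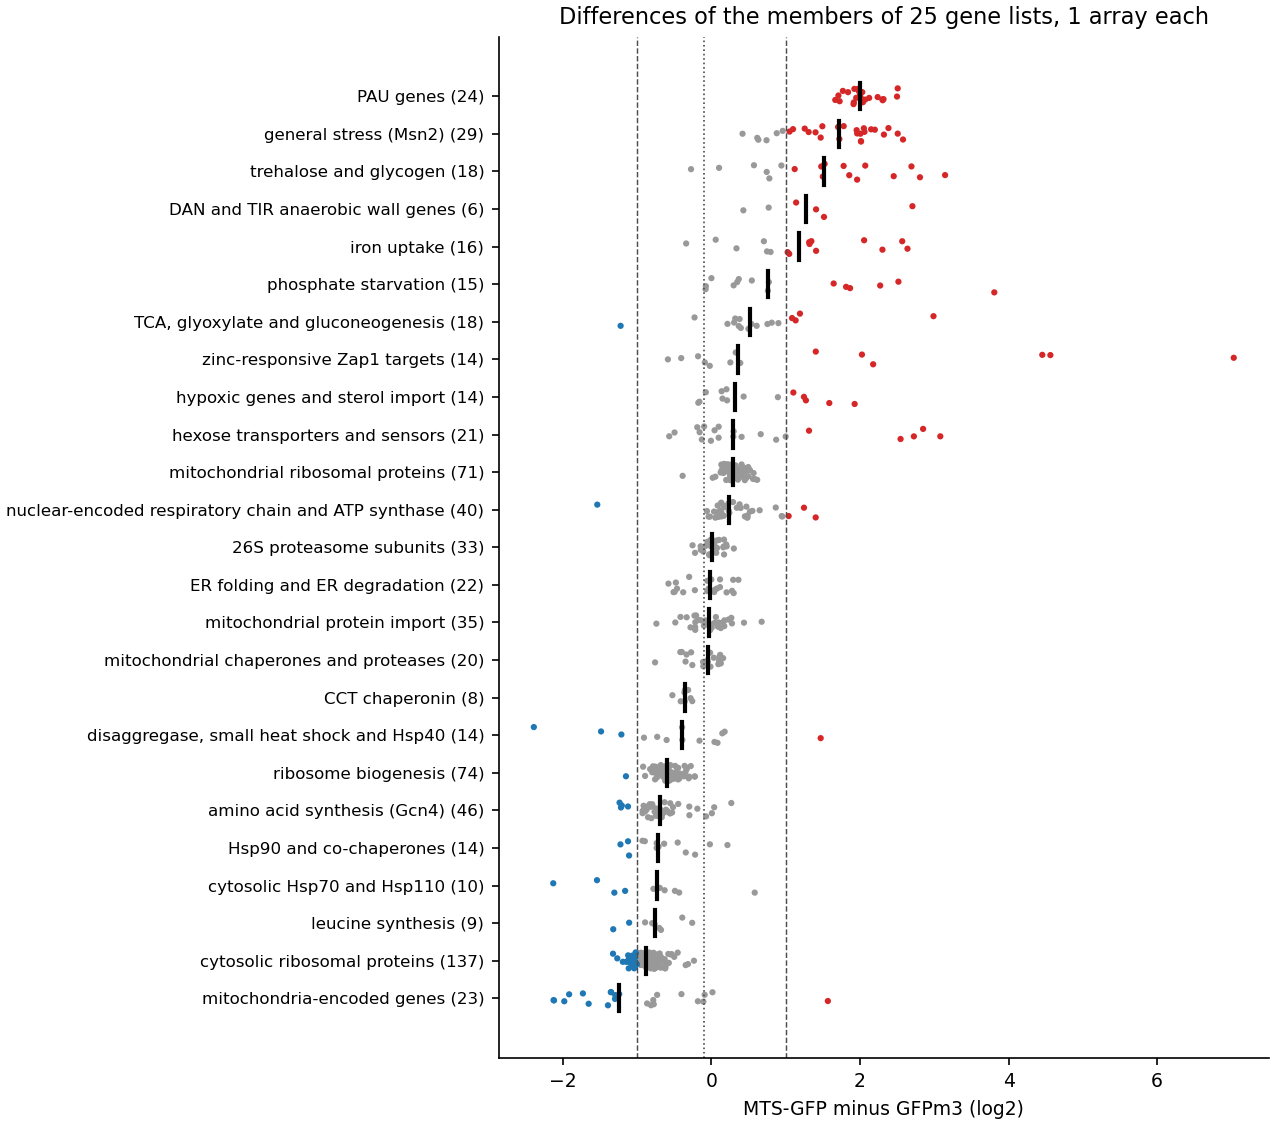
Differences (MTS-GFP minus GFPm3, log2) of the members of 25 gene lists, 1 point per gene, with genes over 2-fold higher in red, genes over 2-fold lower in blue, list medians as black bars and the median of all names (-0.10) as a dotted line. All 24 *PAU* genes lie right of 1, all 137 cytosolic ribosomal proteins lie left of 0, and the proteasome genes centre near 0.

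Phosphate and iron genes were 2 further groups on the higher side. *PHO84* (YML123C), the high-affinity phosphate transporter, was at 1.31, -2.50, -1.19, -3.86, -3.59, -3.93 and -3.16, a difference of 3.81 or 14-fold. *SPL2*, an inhibitor of low-affinity phosphate uptake, was higher by 2.52, the acid phosphatase *PHO5* by 2.27, the sodium-phosphate transporter *PHO89* by 1.87, *PHM6* by 1.81 and *PHM8*, a nucleotidase, by 1.65. These 6 of 15 phosphate genes were over 2-fold higher, 0 were lower, and MTS-GFP was the highest of the 7 arrays for each of the 6. The median of the 15 was 0.76, and without *PHO84* it was 0.65. The medians against the shared vector were 0.35 in MTS-GFP and -0.43 in GFPm3.

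Of 16 iron uptake genes, most of them under Aft1, 10 were over 2-fold higher and 0 lower, with a median of 1.18. The mannoprotein *FIT2*, which retains siderophores in the wall, was at 2.95, 0.38, 1.78, 3.15, 0.29, -1.11 and -0.19, a difference of 2.57, and *FIT3* was at 3.88, 1.83, 1.78, 3.85, 1.35, -0.73 and -0.08, a difference of 2.06. NES-GFP was as high as MTS-GFP for both, and GFP and GFP-Deg were low. *TIS11* (*CTH2*), which degrades mRNAs of iron-using proteins, was higher by 2.30, the siderophore transporters *ARN2*, *ARN1* and *SIT1* by 1.41, 1.32 and 1.32, and the high-affinity permease pair *FET3* and *FTR1* by 1.35 and 1.05. *FRE5*, a dim ferric reductase homologue, was higher by 2.64 and by 1.31 after normexp, and *FRE3*, a reductase of siderophores, by 1.03. *CTH1* differed by -0.34. MTS-GFP was the highest array in 12 of the 16 genes and the second in 3, and NES-GFP was second in 9. With no scaling, *FTR1* and *FRE3* fell below 2-fold and 8 remained over it. Of 13 copper genes (median 0.42), *CCC2*, which loads copper into the iron oxidase Fet3, was over 2-fold higher (1.16), and *FRE7*, a copper-regulated reductase, over 2-fold lower, from levels of -7.09, -5.22, -2.07, -3.46, -5.50, -3.40 and -4.73. That difference was -1.87, and -0.83 after normexp. In each direction this is 1 of 13 copper genes (7.69%), beside 4.58% of all names higher and 2.63% lower.

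Genes of the mitochondrial genome were lower in MTS-GFP. Of 23 mitochondria-encoded names, 12 were over 2-fold lower and 1, *Q0010*, was over 2-fold higher in a reading frame not well above background in GFPm3. The median was -1.24. *COX1*, the first subunit of cytochrome *c* oxidase, was at -2.55, -0.82, -1.48, -1.46, -0.81, -0.58 and -0.90, a difference of -1.73. *ATP6*, a subunit of ATP synthase, was at 0.39, 1.75, 1.39, 1.73, 1.86, 2.09 and 2.04, and *COB*, cytochrome *b*, was at -0.65, 0.70, 0.52, 0.55, 0.92, 1.28 and 1.14, each a difference of -1.35. MTS-GFP was the lowest of the 7 arrays for all of these, and GFPm3 was within the range of the others.

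Not all mitochondrial genes differed to the same extent. Of the 8 protein genes, *COX1*, *ATP8* (-1.39), *ATP6* and *COB* were over 2-fold lower, and *OLI1* (-0.78), *COX2* (-0.78), *COX3* (-0.73) and *VAR1* (-0.09), the mitochondrial ribosomal protein, were within 2-fold. The 4 that were over 2-fold lower include the genes with introns, *COX1* and *COB*. Their 7 intron reading frames well above background on both arrays were lower as well. The frames *AI4* and *BI4* were not well above background on both arrays and were within 2-fold as measured. *AI5_ALPHA*, in an intron of *COX1*, was at -1.23, 0.89, -0.07, 0.04, 0.05, -0.15 and -0.10, a difference of -2.12, with MTS-GFP lowest and GFPm3 highest. *AI3* (-2.12), *AI1* (-1.98), *AI2* (-1.91), *AI5_BETA* (-1.65), *BI2* (-1.30) and *BI3* (-1.29) were also over 2-fold lower. After normexp, *AI3*, *BI2* and *BI3* were at -0.74, -0.96 and -0.80, and 8 of the 23 names were over 2-fold lower. The intron frames share a precursor with their gene, so these are not separate measurements. How evenly the labelling took up mitochondrial and nuclear RNA was not tested. Against the shared vector, the 23 names had medians of -1.0 in MTS-GFP and 0.28 in GFPm3.

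Nuclear genes for mitochondrial proteins went the other way or hardly differed. Of 71 mitochondrial ribosomal proteins, 70 were higher in MTS-GFP, 68 of them by over 2 spot errors, but 0 by over 2-fold, and the median was 0.29. *RSM22* was the exception, at -0.39. In 47 of them MTS-GFP was the highest array, and in 25 GFPm3 was the lowest. With no scaling, 63 of the 71 were higher. Of 40 nuclear genes of the respiratory chain and ATP synthase, 36 were higher (24 with no scaling), with a median of 0.23. On the higher side, the largest differences were those of *NDE2* (1.40), an external NADH dehydrogenase, *INH1* (1.25), which inhibits ATP hydrolysis by the synthase, and *SDH1* (1.04). The other subunits of succinate dehydrogenase, *SDH2* (0.95), *SDH4* (0.95) and *SDH3* (0.65), were close behind, and *CYC1* was the only one over 2-fold lower.

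The import machinery, through which MTS-GFP would pass, showed small differences in both directions. Of 35 genes, 0 were over 2-fold apart, and the median of -0.03 turned positive after array-median scaling. By over 2 spot errors, 9 were higher and 13 lower, beside 1916 and 3062 of all 6225 names. The extremes were both parts of the disulfide relay of the intermembrane space, *MIA40* at 0.68 and *ERV1* at -0.74, followed by *TIM9* at -0.49 and *PAM17* at 0.44. Among 20 mitochondrial chaperones and proteases the median was -0.05, with a sign that depended on the scaling. *MDJ1*, the Hsp40 of the matrix, was at 0.45, 1.21, 0.14, 0.29, -0.50, -0.14 and -0.03, a difference of -0.76 with GFPm3 highest, and the disaggregase *HSP78* was at -0.42. *HSP60* differed by -0.11.

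Of 12 genes of the mitoCPR and of drug pumps, 4 were over 2-fold higher and 0 lower, with a median of 0.52. *CIS1*, which recruits Msp1 to the import channel, was higher by 1.42, *PDR15* by 2.17, *PDR5* by 1.23 and *PDR3*, their activator, by 0.75. *MSP1*, the extracting ATPase, was higher by 0.46. *RSB1* (YOR049C), a sphingoid base transporter, was at -3.41, -6.68, -3.12, -4.51, -3.66, -2.44 and -3.82. Its difference of 3.27 was thus set by GFPm3, the lowest array, and was 2.0 after normexp.

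**Figure D4:**
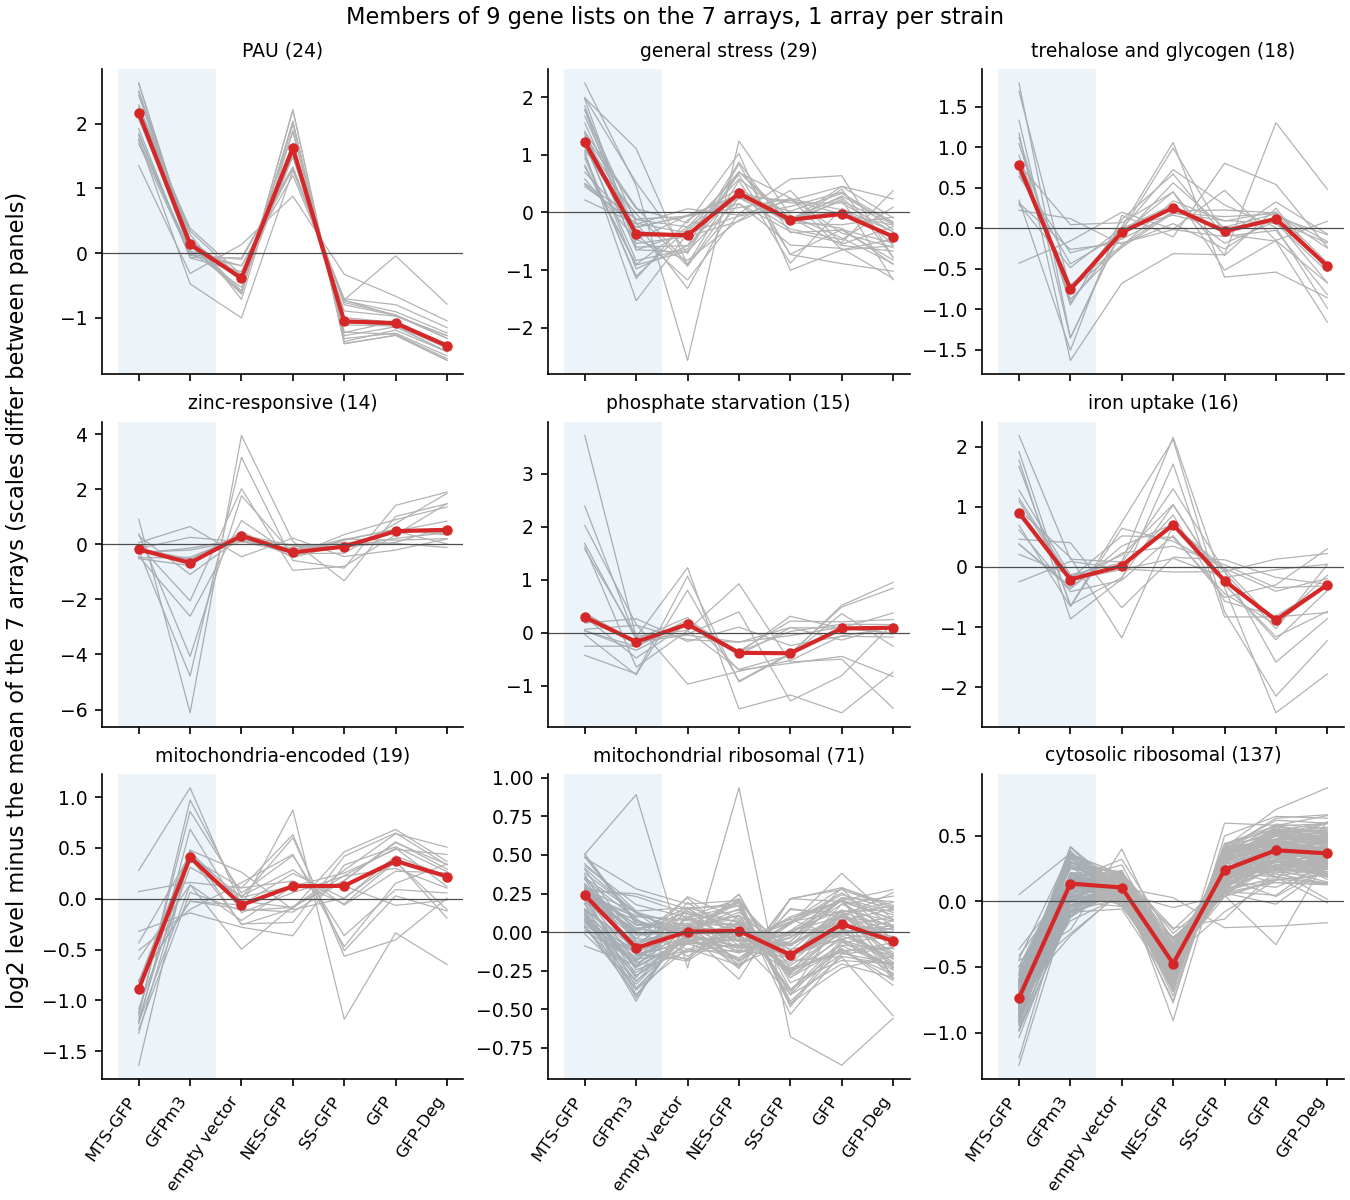
Deviation from the mean of the 7 arrays (log2) of the members of 9 gene lists, 1 grey line per gene and the list median in red, with the MTS-GFP and GFPm3 columns shaded. The medians show MTS-GFP high for *PAU* and general stress genes and low for mitochondria-encoded genes and cytosolic ribosomal proteins.

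Many cytosolic chaperones were lower in MTS-GFP than in GFPm3, and here GFPm3 was often the high array. *SSA4* (YER103W), the stress-induced Hsp70, was at 1.44, 3.57, 1.09, 0.72, 0.27, 0.41 and 0.88, a difference of -2.13 or 4.37-fold. *BTN2* (YGR142W), which gathers misfolded proteins at a deposit site, was at -0.39, 2.0, 0.91, -0.32, -1.07, -0.17 and 1.1, a difference of -2.39, and its paralogue *CUR1* differed by -1.49. For *SSA4*, all other arrays lay at or below MTS-GFP, and for *BTN2*, GFP-Deg and the empty vector came next after GFPm3.

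The constitutive Hsp70 *SSA2* was at 2.18, 3.72, 3.22, 2.59, 3.30, 3.59 and 4.37, a difference of -1.54. There MTS-GFP was the lowest array and GFPm3 the second highest. The probes of *SSA1* (-0.49) and *SSA2* may read both transcripts. *YDJ1*, the main Hsp40 of the cytosol, was at 2.30, 3.51, 2.52, 2.44, 2.31, 2.40 and 3.03, a difference of -1.21. The Hsp70 partners *FES1* (-1.31), a nucleotide exchange factor, and *SSE1* (-1.16), an Hsp110, were over 2-fold lower, as were *HCH1* (-1.22) and *AHA1* (-1.12), activators of Hsp90, and the Hsp90 gene *HSC82* (-1.11).

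Other members differed less or the other way. *STI1* (-0.93), which joins Hsp70 to Hsp90, *APJ1* (-0.91), *CNS1* (-0.90), *SSA3* (-0.78), *SIS1* (-0.73) and *CPR6* (-0.71) were lower within 2-fold. So were *HSP82* (-0.45), the inducible Hsp90, and *HSP42* (-0.39), a small heat shock protein of aggregates. *HSP104*, the main disaggregase, differed by 0.18, *SBA1* by 0.22 and *SSE2*, the stress-induced Hsp110, by 0.58, while *HSP26*, given above, was the 1 member over 2-fold higher.

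Counted together, 10 of 38 cytosolic chaperones were over 2-fold lower and 1 higher, beside 2.63% and 4.58% of all names, and the median was -0.66. By group, the medians were -0.74 for 10 Hsp70 and Hsp110 genes, -0.72 for 14 genes of Hsp90 and its partners and -0.39 for 14 genes of disaggregases, small heat shock proteins and Hsp40s. GFPm3 was the highest of the 7 arrays in 20 of the 38 and MTS-GFP the lowest in 14. Against the shared vector, 8 were over 2-fold higher in GFPm3 and 3 in MTS-GFP, with medians of 0.63 and -0.07. After loess 6 of the 38 were over 2-fold lower. The 8 subunits of the CCT chaperonin, which folds actin and tubulin, were all lower within 2-fold, with a median of -0.36, and MTS-GFP was the lowest array in all 8.

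**Figure D5:**
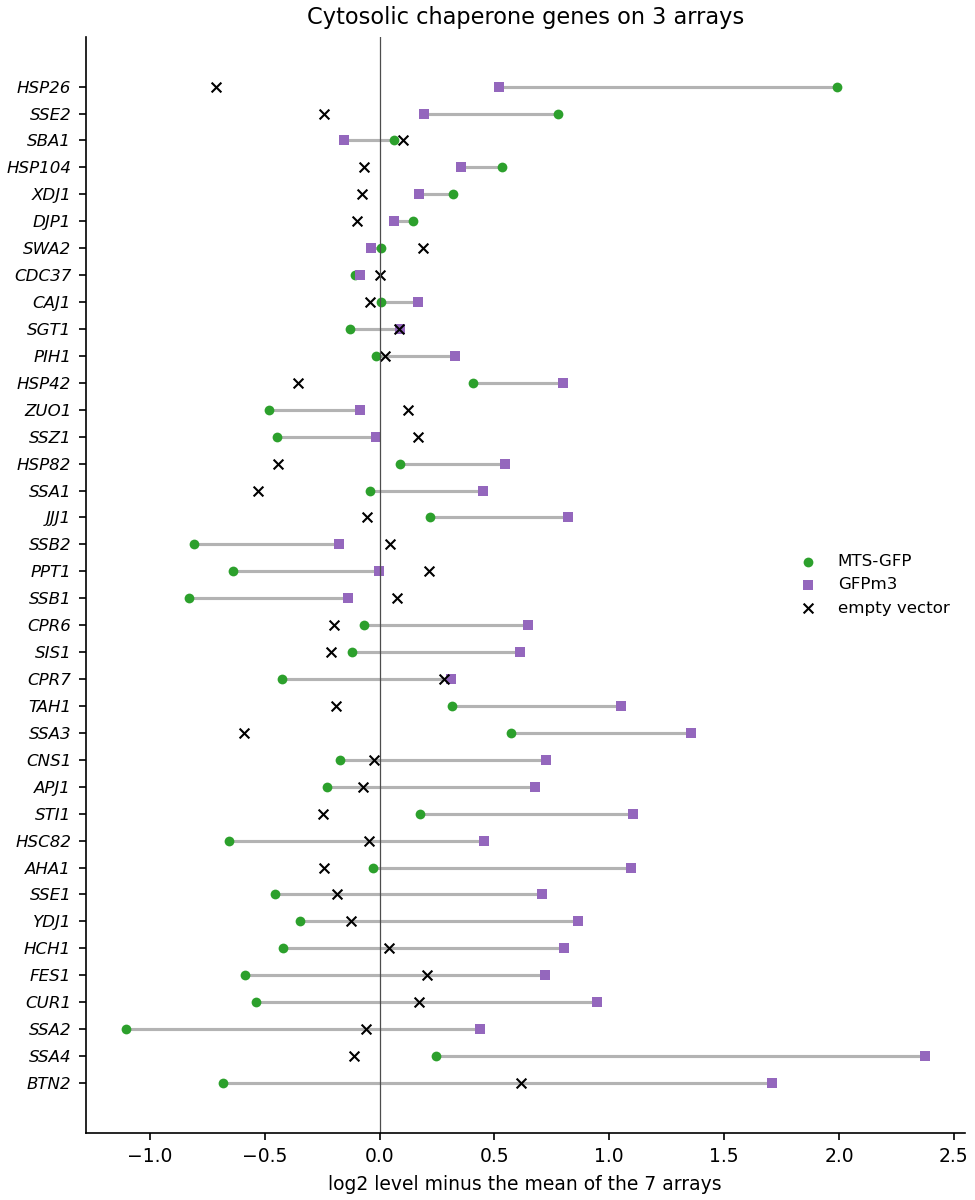
Deviation from the mean of the 7 arrays (log2) of 38 cytosolic chaperone genes on the MTS-GFP, GFPm3 and empty vector arrays, 1 row per gene. The GFPm3 points lie right of the MTS-GFP points for most genes, furthest for *BTN2* and *SSA4*, and left of them for *HSP26* and *SSE2*.

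Cytosolic ribosomal protein genes were lower in MTS-GFP, which was the lowest array for nearly all of them. All 137 cytosolic ribosomal protein genes were lower than in GFPm3, from -1.32 for *RPL9A* to -0.23 for *RPS14B*, except that 1 gene changed sign after loess. The median was -0.88, and MTS-GFP was the lowest of the 7 arrays in 135, with NES-GFP the sixth in 134. *RPL9A* was at 2.75, 4.07, 4.04, 3.22, 4.34, 4.58 and 4.60. Median levels over the 137 genes were 2.77, 3.65, 3.62, 3.04, 3.76, 3.94 and 3.91. The family lay close to the 2-fold mark, so the number past it moved with the scaling. It was 30 of 137 here, 4 after loess, 8 after array-median scaling and 78 with no scaling. Many members are near-identical pairs whose probes may read both.

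Ribosome assembly and amino acid synthesis showed smaller differences, and GFPm3 was often the high array for ribosome assembly. All 74 ribosome biogenesis genes were lower, with a median of -0.59, but only *IMP3* (-1.15) by over 2-fold, and GFPm3 was the highest array in 49. Against the shared vector, their medians were -0.21 in MTS-GFP and 0.37 in GFPm3. Of 46 amino acid genes under Gcn4, 42 were lower by over 2 spot errors and 4 by over 2-fold, among them *ASN1* (-1.24), *HIS1* (-1.22) and *ARO2* (-1.12), with a median of -0.69. That number was 1 after loess, 11 with no scaling, and 6 under quantile or normexp. MTS-GFP was the lowest of the 7 arrays in 30 of the 46 amino acid genes, and GFPm3 the highest in 22. Against the shared vector, the medians of the 46 were -0.31 in MTS-GFP and 0.28 in GFPm3. *GCN4* itself differed by -0.30. The 9 leucine genes had a median of -0.76, with *LEU9* (-1.32) and *OAC1* (-1.11) over 2-fold lower. In 7 of the 9 MTS-GFP was the lowest array, while GFPm3 was the highest in 3 and SS-GFP in 6.

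*IMD2*, an IMP dehydrogenase that is induced when GTP is short, was at -5.55, -3.20, -2.63, -3.72, -2.35, -1.31 and -1.35, a difference of -2.35, and -1.59 after normexp. It was lowest in MTS-GFP and higher on slide 2 than on slide 1. *YAR075W* (-2.09, and -1.41 after normexp) is near-identical to it and may not be a separate measurement. *IMD3* (-0.67), *GUA1* (-0.62) and *IMD4* (-0.48), the other genes of GTP synthesis, were also lowest in MTS-GFP. In the pyrimidine pathway, *URA10* was over 2-fold higher (1.23) and 0 of 11 genes were over 2-fold lower, with a median of -0.42.

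Several of the largest differences fell outside the lists. *EGO4* (YNR034W-A) was at 3.54, 0.02, 1.07, 2.92, 2.02, 1.77 and 1.14, a difference of 3.52. *BDH2* (YAL061W), similar to butanediol dehydrogenase, was at 1.96, -1.32, -1.32, 0.58, -0.41, 0.48 and -0.67, a difference of 3.28. *SPS100*, a protein of the spore wall, was at -0.56, -3.28, -3.84, -2.43, -3.72, -3.78 and -4.10, a difference of 2.72, and the dubious frame *YOR053W* differed by 3.12. MTS-GFP was the highest array for *EGO4*, *BDH2* and *SPS100*.

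On the lower side, *NFG1* (YLR042C) was at -4.17, -1.72, -3.34, -3.91, -2.60, -3.29 and -4.91, a difference of -2.45. *UBC11* (YOR339C), a ubiquitin-conjugating enzyme homologue, was at -6.00, -3.59, -6.00, -5.35, -5.72, -5.49 and -5.47, a difference of -2.41, and *FRM2*, a nitroreductase homologue, was at -3.84, -1.55, -4.27, -2.22, -3.47, -4.39 and -2.62, a difference of -2.29. All 3 were highest in GFPm3. These genes are dim, and *UBC11* was at -1.52 after normexp. *COS12* (-1.97), *CDA2* (-1.96), a chitin deacetylase of the spore wall, and *YIR042C* (-1.90) complete the 15 lowest, and were at -1.10, -0.58 and -0.63 after normexp.

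Of 22 genes of peroxide defence and redox balance, 4 (18.2%, beside 4.58% of all names) were over 2-fold higher, *GPX1* (1.5), *TSA2* (1.21), *PRX1* (1.15), the mitochondrial peroxiredoxin, and *GRX2* (1.08), with a median of 0.41. Of 33 subunits of the 26S proteasome, 0 were over 2-fold apart and 22 were within 2 spot errors, and the median was 0.01. The 22 genes of ER folding and degradation also had 0 over 2-fold apart, with a median of -0.02. Both medians lay on either side of 0 depending on the scaling. All 10 histone genes were lowest in GFPm3 among the 7 arrays, with differences from 0.05 for *HTB2*, which was below 0 with no scaling, quantile or normexp, to 0.55 for *HTA1* and a median of 0.25. Of 23 thiamine genes, 1 (4.35%, beside 4.58% of all names) was over 2-fold higher, *THI7*, the thiamine transporter, at 1.0 on the log2 scale. With no scaling, with outlier spots kept or with medians of spots the count of thiamine genes over 2-fold higher was 0. The median of the thiamine genes was -0.17. The 46 genes of nuclear transport and the pore had a median of -0.26, the 28 of sulfate assimilation and methionine one of -0.06, and the 16 proteasome regulators and assembly factors one of 0.04, each with 0 over 2-fold apart.

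In 3 further lists at most 1 gene in each direction was over 2-fold apart. Such a gene made up 6.67% to 8.33% of its list, beside 4.58% higher and 2.63% lower among all names. Among 15 wall proteins of aerobic growth (median 0.16), *PIR3*, a wall protein of late growth, was over 2-fold higher at 1.02 and *UTR2*, a chitin transglycosylase, over 2-fold lower at -1.36. Among 14 mating genes (median -0.07), *FIG1* was at -1.44, and at -0.63 after normexp. Of the 12 *COS* genes (median 0.33), many of which are near-identical genes of chromosome ends, only *COS12* was over 2-fold lower. GFPm3 was the lowest array in 8 of the 12.

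For genes well above background on 1 array only, the fold is a bound, taken against the higher of the lowest clearly measured signal on the dim array and the gene's own signal there. Of 20 names measured in MTS-GFP alone, 5 were over 2-fold higher, and of 30 measured in GFPm3 alone, 7 were over 2-fold lower. *UTR5* was at least 2.55-fold higher in MTS-GFP. *PGU1*, a pectin-degrading enzyme, was at least 2.56-fold lower and *YKR015C* at least 2.55-fold lower. For the mitochondrial reading frames, *Q0010* was at least 1.16-fold higher and *SCEI*, an intron endonuclease, at least 1.34-fold lower. Their differences as measured were 1.57 and -1.24, and 0.25 and -0.17 after normexp. A further 146 names were not well above background on either array, and no fold is given for them.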

How the data were processed

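Total RNA (hot phenol) was labelled with 1 dye for Agilent yeast arrays. The authors scanned the arrays with a SureScan scanner and quantified them with the Feature Extraction software. The files they deposited hold, per spot, a linear intensity corrected for background but not scaled between arrays, with other columns of flags per the file headers. The value table of the series, also deposited, equals these intensities. Here control spots and outlier spots (308 in MTS-GFP, 252 in GFPm3) were left out, log2 was taken and scaled to each array's 75th percentile, and the 7 spots of a probe, then the probes of a name, were averaged. A name was well above background where at least 4 spots of each probe were. Genes named are the 15 highest and 15 lowest well above background, up to 6 list members in the direction of the median and 2 in the other, members of lists of 14 or fewer, markers, *CDC19* and *MRPS12*. Genes named beyond this rule, such as *HSP60*, *GCN4* and further list members, were chosen after their values were seen, and some genes the rule would name are not reported here. The members and the 44 lists (1017 names, with 5 further members not matched) were chosen with earlier results of these data known. The RefSeq gene table, which gave gene names and neighbours, held 5737 of the names as locus tags. No test was possible with 1 array per strain. The alternatives were quantile, loess, array-median and no scaling, normexp (offset 50) with quantile, a filter on dim genes, outlier spots kept, medians of spots, and thresholds of 1.5-fold and 3-fold. Planned counts of promoter motifs were not run. The steps recovered differences planted in simulated arrays. All planted differences were past 2-fold and the only noise was between spots. That run checks the code, and does not cover variation between cultures or hybridizations, or values near 2-fold. Python 3.11.15, numpy 2.4.6, pandas 2.3.3, R 4.3.3, limma 3.58.1 and matplotlib 3.10.9 were used.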

Additional observations from a re-analysis of the deposited data

How the results depend on the processing

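At thresholds of 1.5-fold and 3-fold, 602 and 122 names were higher and 851 and 27 lower in MTS-GFP, against 285 and 164 at 2-fold. The number over 2-fold lower was 92 after loess, 326 with no scaling and 105 after normexp, and the number over 2-fold higher ran from 218 with no scaling to 344 after loess. With the other settings both counts stayed within 1.5 times the values reported. Of 197 named or listed genes over 2-fold apart, 34 were no longer so after loess, 22 after array-median scaling, 22 after normexp, 17 with no scaling and 11 after quantile normalization, and 0 of them changed sign. Medians of lists near 0 changed sign, in 7 of 48 lists after loess and in at most 6 under any other setting. For listed genes and the 30 largest differences, values after normexp stand in the report where they differ by over 1.5-fold. No paired analysis was possible because each strain was measured on 1 array. For the same reason no replicate could be left out, and differences between cultures, labellings and hybridizations cannot be told apart from those between strains.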

Other observations

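The genes in this paragraph lie outside the lists and were picked after their values were seen, so they say nothing of how other genes of the same function differed. The mitochondrial aldehyde dehydrogenase *ALD4* was higher in MTS-GFP than in GFPm3 by 1.84 on the log2 scale, the lactate transporter *JEN1* by 1.80, the peroxisomal thiolase *POT1* by 1.67, the acetate transporter *ADY2* by 1.46, the carnitine acetyltransferase *CAT2* by 1.37 and *ACH1* by 1.27. The phosphatase subunits *GIP2* and *PIG2*, which act on glycogen, were higher by 1.88 and 1.41. The vacuolar enzymes *PEP4*, *AMS1* and *APE1* were higher by 1.26, 1.22 and 1.14. Of regulators, *HAP4*, the activating subunit of the complex for respiratory genes, was higher by 1.11 and *MSN4* by 1.20, while *MSN2* differed by 0.12 and *HSF1* by -0.03. On the lower side, 4 genes with roles in DNA replication, *DPB2* (-1.10), *PSF2* (-1.10), *CDC45* (-1.03) and *TAH11* (-1.03), and 2 of arginine synthesis, *ARG56* (-1.05) and *ORT1* (-1.03), were just past 2-fold, and other genes of these functions were not counted.

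Among the outermost 10 genes of chromosome arm ends, 31 of 303 (10.2%) were over 2-fold higher and 15 (4.95%) over 2-fold lower. Without the *PAU* genes, 12 of 284 (4.23%) were higher and 15 (5.28%) lower, beside 4.24% and 2.31% of other placed genes that are not *PAU* genes. This is a description of 2 arrays, and many genes at chromosome ends belong to near-identical families.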
